A study of Mus musculus with 14 samples.

Results

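The SNPs from 30 to 70 Mb of the mouse X chromosome were taken as every position of the allele count table between 30000000 and 69999999 (mm10) that lies outside the bodies of 8 genes, among them Hprt and Utp14a. The window held 370 SNPs, the 8 gene bodies took 40 of them, and the 330 SNPs that remained were 14.7 % of the 2239 SNPs on the X chromosome. They ran from position 36052563 to position 68769064. By the GENCODE vM21 annotation 326 of them were exonic to a single gene, 1 was shared by 2 genes and 3 were not exonic, and the 326 fell in 55 genes of the 355 X-linked genes with such SNPs.

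The samples were RNA-seq libraries of 1 female Xist∆A/+ 129/CAST F1 ES cell line derived from an E3.5 blastocyst and wild type for Setdb1, and this genotype was shared by all groups. Day 0 cells were undifferentiated (2i and LIF) and not transduced. Cells of day 3 and day 5 of differentiation carried a retrovirus with the non-silencing hairpin (Nons) or with one of 2 hairpins against Setdb1 (shSetdb1.4 and shSetdb1.6), and were selected with puromycin. With 7 conditions and 2 replicates each there were 14 libraries. The labels give 129/C57 dams and CAST sires, and the reference allele is called 129 here. The sources place the transduction on different days (with the start of differentiation, the day after, or day 2). The untransduced day 0 cells differ from the Nons cells in the virus and the selection as well as in time. According to the study's text, XO cells were present in these cultures. In bulk RNA, fewer cells with an active CAST X chromosome and less CAST RNA per cell cannot be told apart.

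X chromosome inactivation equalizes X-linked gene dosage between the sexes: the noncoding RNA Xist coats 1 X chromosome of a female cell in cis, and genes along it are then silenced. Xist that lacks its A repeats coats but does not silence. The 129 X chromosome of these cells carries this Xist∆A allele and stays active (Xa), so that the CAST X chromosome becomes the inactive X (Xi) in cells that inactivate. Setdb1 is a histone methyltransferase that trimethylates lysine 9 of histone H3, a mark of silent chromatin. Most X-linked genes are silenced during ES cell differentiation, and some escape. A SNP in a transcript tells which X chromosome a read came from, and the log2 of CAST over 129 reads is called the Xi/Xa ratio: 0 means equal expression of both alleles and negative values mean less RNA from the CAST X.

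The following 25-base stretches show the SNPs that the results turn on. Each is read 5′ to 3′ on the strand of the gene from the GENCODE vM21 transcripts (mm10), with the SNP base at position 13 in capitals, and the change gives the reference base, the position from the 5′ end and the CAST base. The SNPs of Zdhhc9, Bcorl1, Elf4, Usp26 and Gm364 are deep SNPs of the genes whose Xi/Xa ratio fell with differentiation. The SNP of Pgrmc1 is the gene's only one, and those of Firre are the SNPs with the lowest and the highest ratio in that gene. Those of Gpc3, Fmr1nb and Sms-ps are among the 3 SNPs with the most reads of their 10 Mb block.
Zdhhc9, coding sequence, minus strand, chrX:48194630-48194654, G13T: ctccatggccacGctgttgaggaca
Bcorl1, coding sequence, plus strand, chrX:48379018-48379042, G13A: gaggaggaggtcGctcccaccccag
Elf4, 3′ UTR, minus strand, chrX:48412385-48412409, C13T: ctgtcttcatttCcagagcctccag
Usp26, 3′ UTR, minus strand, chrX:51754085-51754109, T13C: ttagttgtcttgTctttaatggggt
Gm364, coding sequence, plus strand, chrX:57421916-57421940, T13A: gtgatacaactgTcaaggttgcaaa
Pgrmc1, 3′ UTR, plus strand, chrX:36605757-36605781, C13A: agtttgaaaggaCaatacattcatt
Firre (lowest), noncoding exon, minus strand, chrX:50569983-50570007, A13C: aaatggaagctaAattctaggagta
Firre (highest), noncoding exon, minus strand, chrX:50564760-50564784, T13C: ctttttggcttgTtatgcttttata
Gpc3, coding sequence, minus strand, chrX:52314858-52314882, G13A: ggtgacgggatgGtgaaagtgaaga
Fmr1nb, coding sequence, plus strand, chrX:68762070-68762094, A13G: ctccgagtgccgAccaggggaacaa
Sms-ps, noncoding exon, minus strand, chrX:62776104-62776128, T13C: agaagactacacTggcaaagatgta
The adjacent SNPs of Elf4 and the clusters of Zdhhc9 and Firre sit within 1 read of each other, so that 1 molecule can be counted at several SNPs.

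Of the SNPs in exons of 1 gene, 164 were in 3′ UTRs, 99 in coding sequence, 17 in 5′ UTRs and 46 in exons of noncoding genes. Transitions made up 67.6 % of the SNPs of the interval and 70.5 % of all X-linked SNPs. Another SNP lay within 100 bp, the read length, for 45.5 % of the interval's SNPs and for 44.4 % of all SNPs. Noncoding exons held 14.1 % of the interval's SNPs that are exonic to a single gene and 3.41 % of all such X-linked SNPs, and coding sequence held 30.4 % and 38.6 %. Most of the interval's noncoding SNPs (39 of 46) lie in Firre.

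The interval received between 2626 and 9193 allele reads per library (median 6480.5), which was 7.96 % to 10.7 % of the X-linked allele reads of that library. The SNPs with at least 10 reads had a median of 15 to 24 reads, so that the ratio of a single SNP in a single library is imprecise. The shallowest library was Nons of day 5, replicate 2, with 81 such SNPs, and each result that compares Nons of day 5 rests on it and on 1 further library. Of the 55 genes, 33 reached 10 reads in all 14 libraries and were tested, with 446 to 8008 reads in total (median 1992). The other 22 genes had 29 to 550 reads (median 254) and were not tested. A read without a molecular identifier is not an independent molecule, so all counting errors are lower limits.

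Median Xi/Xa ratios of the interval's SNPs were near or below 0 before differentiation and at day 3, and were lowest in Nons cells at day 5. In day 0 cells the medians were −0.48 and −0.17 in replicates 1 and 2. Nons cells had 0 and −0.13 at day 3. They had −0.81 and −0.62 at day 5, below every other library. The shSetdb1.4 libraries of day 5 had medians of −0.58 and −0.19 and the shSetdb1.6 libraries −0.32 and −0.22, so each hairpin library was above the Nons library of its own replicate. At day 3 the 4 hairpin libraries lay between −0.087 and 0.

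Between day 3 and day 5 the median of Nons cells went down by a mean of −0.65 ± 0.22 (SD, n = 2 replicates), compared with −0.30 ± 0.16 for the SNPs outside the window. At day 5 the knockdown median was above that of Nons by 0.36 in replicate 1 and 0.41 in replicate 2 (0.38 ± 0.041, SD, n = 2), and by 0.32 ± 0.048 outside the window. At day 3 the same difference was 0.028 ± 0.077. The difference at day 5 was 0.33 ± 0.14 for shSetdb1.4 and 0.44 ± 0.062 for shSetdb1.6. A median over the interval's SNPs is a description and was given no test. Each library's median is over its own SNPs that reached the read minimum. The compared medians are therefore not over the same SNPs. At day 5, replicate 2, the sets held 81 SNPs in Nons, 261 in shSetdb1.4 and 220 in shSetdb1.6. The median also depends on the weight of a single noncoding gene, Firre, whose SNPs are low in every library. In Nons cells Firre gave 2 and 0 SNPs to the medians of day 3, and 39 and 13 to those of day 5. Without Firre the change of Nons from day 3 to day 5 was −0.48 ± 0.27 and the knockdown difference at day 5 was 0.36 ± 0.11. With SNPs of at least 20 reads the knockdown difference was 0.19, and with 1 value per gene in place of SNPs it was 0.48 ± 0.16.

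**Figure D1:**
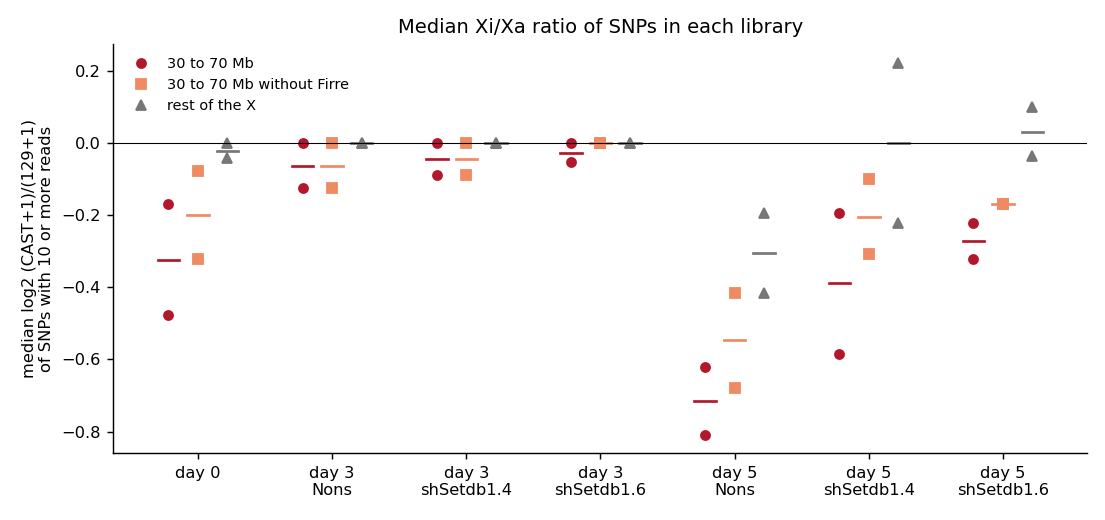
Median log2 Xi/Xa ratio (y axis) of the SNPs with 10 or more reads, for every one of 14 libraries (x axis, by condition, d for day and sh for shSetdb1), with circles for the interval, squares for the interval without Firre, triangles for the SNPs outside the window, and a short line at the mean of 2 replicates. The circles of Nons at day 5 sit at −0.81 and −0.62, below every other circle, and the circles fall below the squares at day 0 and day 5, where Firre has most of its reads.

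At day 0, before X inactivation begins, 24 of the 33 tested genes had less CAST than 129 RNA in the fit, and 4 were past the threshold of an adjusted p of 0.05 (14.2 % of the 247 tested X-linked genes were called in this direction and 22.3 % in either). These were Firre, Pgrmc1, Zfp280c and Ocrl. The other direction had 0 genes of the interval (8.1 % of X-linked genes). With no filter on low counts there were 6 calls, with Rhox6 higher from CAST (1.75, adjusted p = 0.000178 by edgeR) and Mospd1 lower (−0.92, adjusted p = 0.0423), and with centred ratios (each library's own median subtracted, which takes out a shift common to the chromosome) there were 5, with Fmr1 higher (0.39, adjusted p = 0.0493). Pgrmc1 encodes a membrane protein that binds haem. Its single SNP had 24.4 % CAST reads in day 0 replicate 1 and 25.6 % in replicate 2 (160 and 168 reads), and stayed between 12.5 % and 29.1 % in the other 12 libraries. The log2 ratio at day 0 was −1.58 (SE 0.23, adjusted p = 2.8e-10; edgeR's quasi-likelihood test, Benjamini-Hochberg adjusted over the 247 genes, here and in what follows). With 1 SNP (1992 reads in all), a property of that position cannot be told apart from the gene's expression.

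Zfp280c, which encodes a zinc finger protein, had 33.7 % and 36.3 % CAST reads at day 0, a log2 ratio of −0.89 (SE 0.18, adjusted p = 7.8e-06 by edgeR). In Ocrl, an inositol polyphosphate 5-phosphatase of endosomes and the Golgi, the shares were 34.9 % and 42.1 %, with a log2 ratio of −0.68 (SE 0.16) and an adjusted p of 0.000186 by the same edgeR test. Both genes were below 50 % CAST in both day 0 libraries. The call for Ocrl was lost without day 0 replicate 1 (adjusted p = 0.0757). With the deepest SNP of each gene only, 15 genes of the interval could be tested, of which Pgrmc1 was called; Firre, Zfp280c and Ocrl were not among them.

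Firre, a long noncoding RNA transcribed from many repeated exons (chrX:50555744-50635321, minus strand), was the deepest gene of the interval. At day 0 it had the lowest Xi/Xa ratio of the tested genes. It is known as an RNA that escapes X inactivation and that holds loci together in the nucleus. Its 39 SNPs all had ratios below 0 when summed over the 14 libraries, with a median of −2.78 and a range from −4.48 to −0.64. This is a range from 3.78 % to 38.9 % CAST reads, and the ends of it are the pair of Firre stretches printed above. Per library the gene had 14.5 % to 24.9 % CAST reads. At day 0 the shares were 18.3 % and 16.8 % (867 and 417 reads), a log2 ratio of −2.21 (SE 0.16, adjusted p = 1.16e-40 by edgeR).

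SNPs of Firre lie close together, and the share of CAST reads was compared between isolated and clustered ones. The median log2 ratio was −2.75 for the 5 SNPs with no other SNP within 100 bp, −2.79 for the 34 with a neighbour and −3.06 for the 9 with 4 or more. As pooled reads these were 22.7 %, 15.8 % and 9.68 % CAST. The isolated SNPs ranged from 5.07 % at 50608801 of Firre (138 reads) to 34.2 % at 50563474 (395 reads), so that the pooled share rests in part on the latter. In the other SNPs of the interval the shares were 46.7 % without and 46.3 % with a neighbour, and 46.0 % with 4 or more (6 SNPs). A read that carries several CAST bases differs from the reference at each of them, and whether reads were lost in mapping was not tested. 

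**Figure D2:**
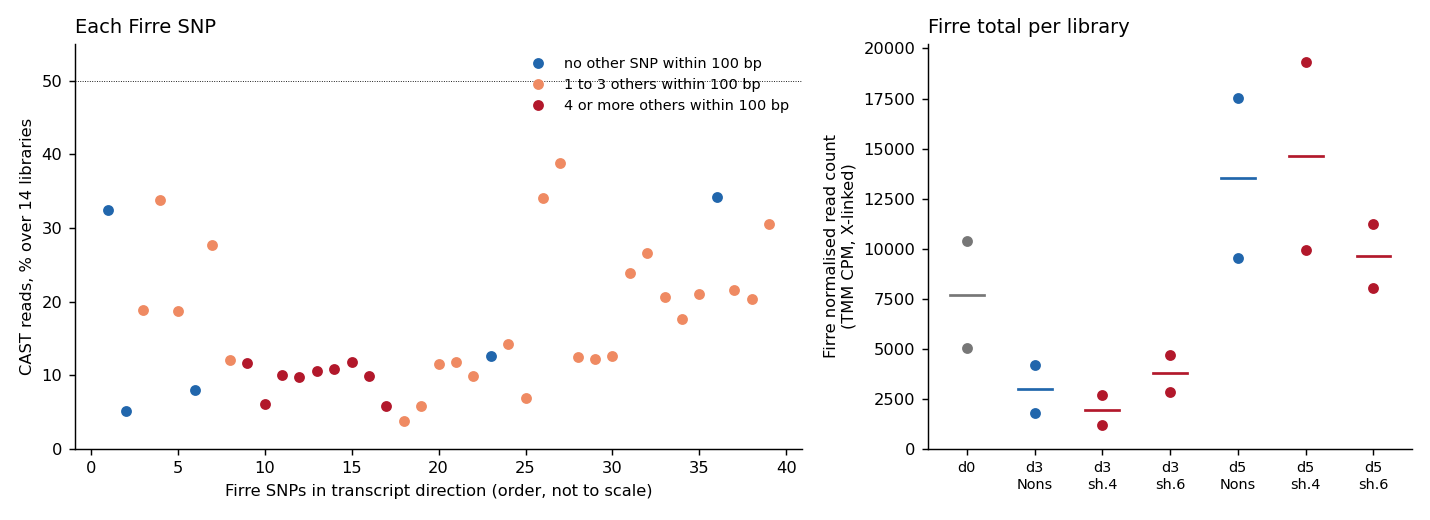
Left, percentage of CAST reads (y axis) of each of the 39 Firre SNPs over 14 libraries in transcript order (x axis), coloured by the number of other SNPs within 100 bp; right, in grey for day 0, blue for Nons and red for the hairpins with a line at the mean of 2, the normalised read count of Firre, both alleles (CPM of X-linked allele reads, y axis) in each library (x axis). On the left all 39 SNPs are under 50 %, with 9.68 % in all for those with 4 or more neighbours, and on the right the libraries of day 3 are lower than those of Nons at day 5.

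From day 3 to day 5 the Xi/Xa ratio of Nons cells fell in 5 of the 33 tested genes and rose in 0 (9.72 % of X-linked genes fell, 10.1 % changed in either direction), and 9 of the 33 had an unadjusted p under 0.05, as did 57 of the 247 X-linked genes. The fitted difference was negative in 28 of 33 genes, with a median of −0.50, beside −0.33 over all X-linked genes tested. In 18 of the 33 genes (54.5 %) both Nons libraries of day 5 were below both of day 3, where 46.6 % of all X-linked genes were so. Genes with a positive difference that did not pass the test were among others Mcf2 (0.51), Firre (0.12), Mmgt1 (0.10) and the pseudogene Sms-ps (0.06).

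Zdhhc9 encodes a palmitoyltransferase that acts on Ras proteins and lies at chrX:48171969-48208878 on the minus strand, with 11 SNPs. Its CAST share was 48.2 % and 35.5 % in Nons cells at day 3 (193 and 220 reads), and 17.5 % and 22 % at day 5 (451 and 123 reads). The Nons libraries of the 2 days do not overlap. The mean log2 ratio went from −0.48 ± 0.53 to −2.01 ± 0.30 (SD, n = 2). The fitted difference was −1.59 (SE 0.29, adjusted p = 4.04e-06, edgeR). It was past the threshold in the alternatives that changed the fit, among them DESeq2, and in 3 of 4 fits with 1 library left out, and was −1.06 with an adjusted p of 0.0775 without Nons of day 3, replicate 1.

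Its neighbour among the tested genes, Bcorl1 (chrX:48341358-48408049, plus strand, 6 SNPs), encodes a corepressor related to BCOR. CAST reads were 55.2 % and 43.7 % at day 3 and 25.5 % and 10.5 % at day 5 in Nons cells, on 29, 71, 110 and 38 reads, again without overlap. The difference was −1.90 (SE 0.49, adjusted p = 0.00371 by edgeR). Without Nons of day 5, replicate 2, it was −1.54 with an adjusted p of 0.0897, and without replicate 1 it was −2.85.

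Elf4, an ETS family transcription factor (chrX:48411046-48463132, minus strand, 11 SNPs), lies next to Bcorl1. In Nons cells it had 40.3 % and 47.8 % CAST reads at day 3 and 22.5 % and 9.09 % at day 5, on 62, 67, 40 and 11 reads. The difference was −1.71 (SE 0.60, adjusted p = 0.0480 by edgeR), and the call was lost when any of the 4 libraries was left out (adjusted p from 0.0718 to 0.202), with −2.91 without Nons of day 5, replicate 1, and −1.43 without its replicate 2. Together Zdhhc9, Bcorl1 and Elf4 are 3 of the 5 called genes and are neighbours among the tested genes near 48 Mb. The tested genes on either side, Ocrl and Zfp280c, had differences of −0.13 and −0.19 and were not called.

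Usp26 (chrX:51753959-51801233, minus strand, 5 SNPs) encodes a deubiquitinase known from testis. It had 53.7 % and 41.3 % CAST reads in Nons cells at day 3 and 34.0 % and 8 % at day 5, and the 8 % rests on 25 reads. The difference was −1.18 (SE 0.36, adjusted p = 0.0187, edgeR), with an adjusted p of 0.168 without Nons of day 5, replicate 2, and of 0.271 without Nons of day 3, replicate 1. The estimate ranged from −3.20 (without Nons of day 5, replicate 1) to −0.89 (without its replicate 2). Gm364, a predicted gene, had 42.9 % and 50.5 % at day 3 and 35.5 % and 36.0 % at day 5, the smallest change of the called genes (−0.67, SE 0.23, adjusted p = 0.0464 by edgeR). It was the deepest protein-coding gene of the interval, and its call was lost in 3 of 4 fits with 1 library left out (adjusted p from 0.136 to 0.370), with estimates from −0.90 to −0.43, the latter without Nons of day 3, replicate 2. Ints6l (−1.44, adjusted p = 0.0587), Rbmx2 (−0.74, 0.0619) and Fgf13 (−1.33, 0.0910) did not reach the threshold in the edgeR test. Without the replicate block the calls for Elf4, Usp26 and Gm364 were lost (adjusted p = 0.0585, 0.0892 and 0.0798), and Zdhhc9 and Bcorl1 were called. The same 2 genes were called with centred ratios, and Zdhhc9 alone by DESeq2.

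**Figure D3:**
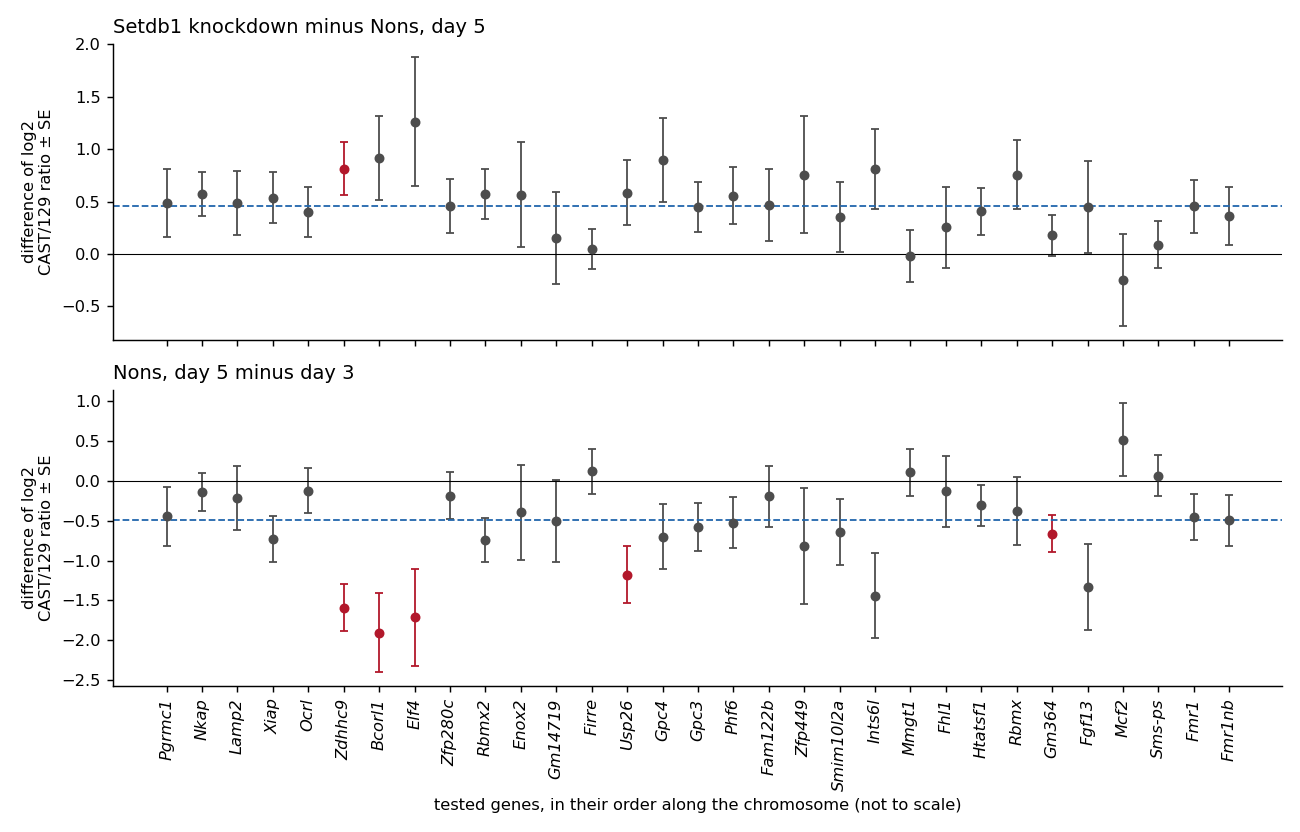
Fitted log2 difference of the Xi/Xa ratio ± SE (y axis) for 31 of the 33 tested genes in chromosome order, not to scale (x axis), for knockdown minus Nons at day 5 and for Nons at day 5 minus day 3, with red for an adjusted p under 0.05 and a dashed line at the median of the 33 genes. Most points are above 0 in the first comparison (29 of 31) and below 0 in the second (27 of 31), with 1 and 5 red points.

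The knockdown was compared with Nons to ask whether the CAST X chromosome is silenced less when Setdb1 is depleted. At day 5 the fitted difference was positive for 30 of the 33 tested genes, with a median of 0.46 (0.35 over all X-linked genes tested), and the ratio of 1 gene rose past the threshold, Zdhhc9 (3.64 % of X-linked genes were called higher, 4.05 % in either direction). At an unadjusted p under 0.05 there were 10 genes, and 62 of the 247 X-linked genes. This comparison shares the Nons libraries of day 5 with the time course above, so the opposite signs of the 2 comparisons in a gene are not independent. In 13 of the 33 genes (39.4 %) all 4 knockdown libraries were above both Nons libraries, beside 32.4 % of all X-linked genes. The reverse held in 1 of the 33 genes (3.03 %), beside 0.81 %. The 13 genes were Lamp2, Nkap, Zdhhc9, Bcorl1, Elf4, Xiap, Gpc3, Gpc4, Phf6, Zfp449, Htatsf1, Fgf13 and Fmr1nb. By hairpin and replicate, 26 and 24 of the 33 genes were above Nons under shSetdb1.4, and 31 and 28 under shSetdb1.6.

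In Zdhhc9 the knockdown libraries of day 5 had 26.7 % and 32.5 % CAST reads with shSetdb1.4 (371 and 280 reads) and 29.2 % in each replicate with shSetdb1.6 (308 and 219 reads), beside 17.5 % and 22 % in Nons cells. The 4 hairpin libraries lie above both Nons libraries and below the range from 35.5 % to 52.6 % of the 6 libraries of day 3. Mean log2 ratios were −1.25 ± 0.29 with shSetdb1.4, −1.27 ± 0.0028 with shSetdb1.6 and −2.01 ± 0.30 with Nons (SD, n = 2 each). The fitted difference of 0.82 (SE 0.25, adjusted p = 0.0390 by edgeR) was lost with any of 5 of the 6 libraries of day 5 left out (adjusted p from 0.0667 to 0.518). Leaving out shSetdb1.4 replicate 1 instead gave 5 called genes (Zdhhc9, Nkap, Gpc4, Rbmx and Rbmx2). The call was also lost without the replicate block (adjusted p = 0.0895), and with centred ratios the difference was 0.50 (adjusted p = 0.502). The estimate itself stayed between 0.60 and 0.93 in the fits with 1 library left out.

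At single SNPs of Zdhhc9 the ratio of reads summed over libraries was higher with knockdown at 9 of 11 positions. The coding SNP printed above had 34 reads of 129 and 13 of CAST in Nons cells at day 5, and 79 and 37 in the 4 knockdown libraries. In the 3 SNPs around 48172883, which share reads, Nons cells had 5 to 7 CAST beside 44 to 50 reads of 129 at day 5, and the knockdown libraries 25 to 32 beside 69 to 78.

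Other genes with large fitted differences did not pass the test. Elf4 had 26.2 % and 28.6 % CAST reads in the shSetdb1.4 libraries and 46.3 % and 50.0 % in the shSetdb1.6 libraries, beside 22.5 % and 9.09 % in Nons cells, so that the hairpins themselves lay apart. Its difference was 1.26 (SE 0.61, adjusted p = 0.170 by edgeR), on 14 to 42 reads per knockdown library. Bcorl1 had 35.6 % and 32.6 % under shSetdb1.4, 32.3 % and 28.6 % under shSetdb1.6, a difference of 0.92 (SE 0.40, adjusted p = 0.135). The 4 values are close to each other, while those of Nons (25.5 % and 10.5 %) are not. Gpc4, a cell surface heparan sulfate proteoglycan, had 41.1 % and 46.9 % with Nons and 52.4 % to 64.7 % with the hairpins (0.90, SE 0.40, adjusted p = 0.137). Ints6l, related to a subunit of the Integrator complex, had 0.81 (SE 0.38, adjusted p = 0.166), and the zinc finger gene Zfp449 had 0.76. In Nons of day 5, replicate 2, Ints6l had 19 reads and Zfp449 had 10. With 1 library left out the differences ranged from 0.99 to 2.47 in Elf4 and from 0.58 to 1.89 in Bcorl1, with the low end without Nons of day 5, replicate 2, and the high end without its replicate 1. In Zfp449 they ranged from 0.13 (without Nons of day 5, replicate 1) to 1.06 (without shSetdb1.6 of day 5, replicate 1). The range was narrower in Gpc4 (0.66 to 1.11), which passed without shSetdb1.4 replicate 1 (adjusted p = 0.0425 by edgeR), and in Ints6l (0.69 to 0.97).

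**Figure D4:**
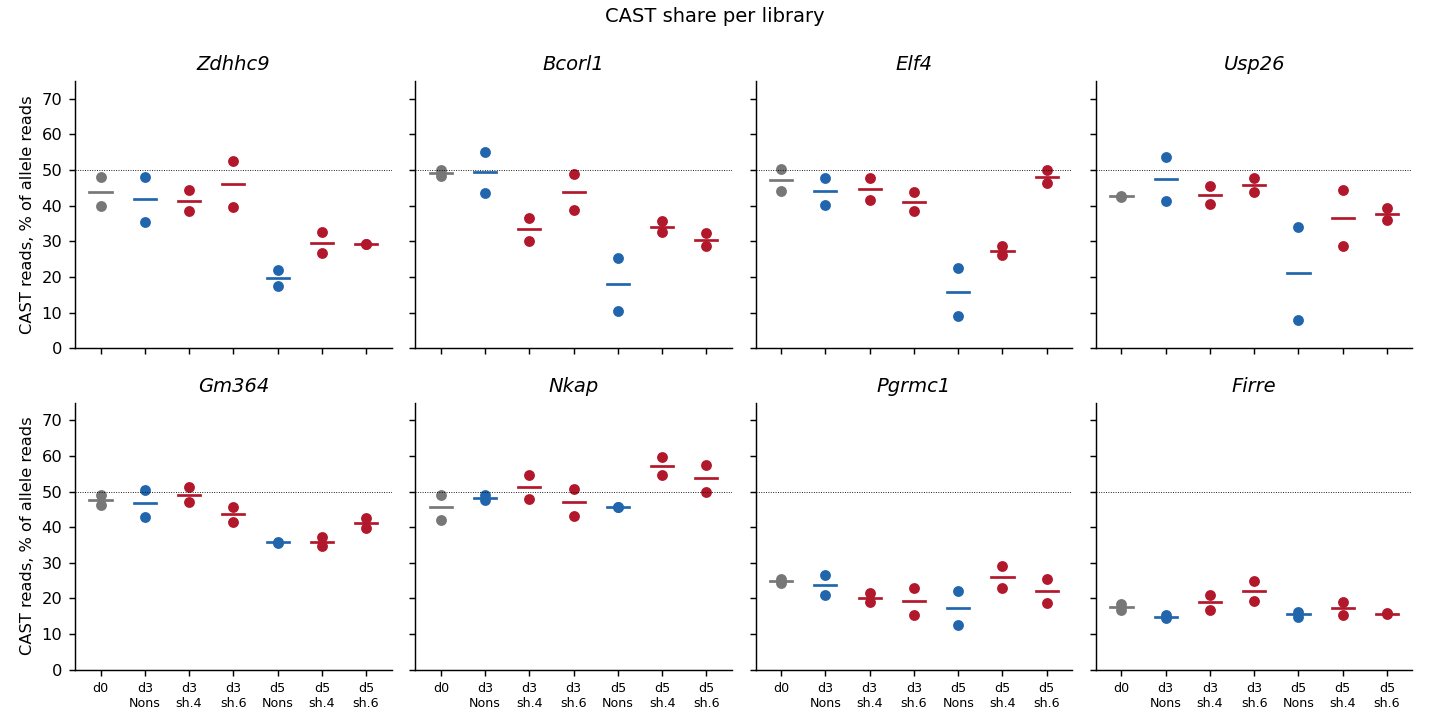
Percentage of CAST reads (y axis, 0 to 75 %) in each library by condition (x axis) for Zdhhc9, Bcorl1, Elf4, Usp26, Gm364, Nkap, Pgrmc1 and Firre, with grey for day 0, blue for Nons, red for the hairpins, a short line at the mean of 2 replicates and a dotted line at 50 %. In Zdhhc9 the blue points of day 5 (17.5 % and 22 %) are the lowest of the panel, in Nkap they lie below the red points of day 5, and in Pgrmc1 and Firre all points are under 30 %.

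A few genes had differences at day 5 that were small or negative, and did not pass the test. Mcf2, a guanine nucleotide exchange factor, had −0.25 and Mmgt1 −0.02. For Mcf2 it was −0.66 without Nons of day 5, replicate 1, and −0.15 without replicate 2. Sms-ps, a processed pseudogene of spermine synthase, had 0.09, and the processed pseudogene Gm14719 had 0.15; reads of these could come from their parent genes. Firre had 0.05. With centred ratios the differences of Firre, Sms-ps and Gm14719 were below 0 (−0.29, −0.25 and −0.18).

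By function, the genes tested at day 5 showed the following. Of 13 listed genes of RNA processing and translation, 6 were tested (Rbmx, Rbmx2, Nkap, Htatsf1, Fmr1 and Ints6l), with 0 called, 6 positive differences and a median of 0.57. Rbmx has near-identical copies elsewhere in the genome, which could share reads. Nkap, which encodes an NF-kappa B activating protein that also binds RNA, had 45.7 % CAST reads in both Nons libraries and 50.0 % to 59.7 % in the knockdown libraries (0.57, SE 0.21, adjusted p = 0.0811 by edgeR). Of 14 listed genes of chromatin and transcription, 6 were tested (Phf6, Bcorl1, Elf4, Zfp280c and Zfp449 among them), again with 0 called and 6 positive, and a median of 0.66. In Phf6, which encodes a chromatin protein with PHD-like fingers, Nons libraries had 49.5 % and 48.5 % and knockdown libraries 53.8 % to 61.2 %. These lists were drawn up with results of these data known, and their counts and medians stand beside those of all X-linked genes tested, of which 3.64 % were called higher and 206 of 247 had a positive difference, with a median of 0.35. They were given no test.

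Of 9 listed genes of membrane traffic and the lysosome 4 were tested, with 1 called (Zdhhc9), 3 positive and a median of 0.44 (3.64 % called higher and a median of 0.35 over all X-linked genes). Lamp2, a lysosomal membrane glycoprotein, had 46.5 % and 46.3 % CAST reads with Nons and 49.1 % to 62.3 % with the hairpins. Of 7 listed genes of heparan sulfate and surface receptors the 3 tested (Gpc3, Gpc4 and Pgrmc1) were all positive (median 0.49, 0 called). Xiap, an inhibitor of caspases, and the oxidase gene Enox2 had a median of 0.55, and Fhl1 and Fam122b, of the list of the cytoskeleton and kinase signalling, 0.36. Usp26, the 1 gene tested of 7 listed for ubiquitin, had 0.59. In the time course of Nons cells the medians were −0.41 for RNA processing (0 of 6 called), −0.74 for chromatin and transcription (2 of 6 called, Bcorl1 and Elf4), −0.17 for membrane traffic (1 of 4, Zdhhc9) and −0.58 for surface receptors (0 of 3). Over all X-linked genes tested the median was −0.33, and 9.72 % were called lower. No test was made on these lists.

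At day 3, knockdown and Nons differed in 0 of the 33 genes by edgeR (0 % of X-linked genes). The count at an unadjusted p under 0.05 was 0 and that by DESeq2 was 0. The fitted differences were positive in 17 and negative in 16 genes, with a median of 0.03 and a range from −0.87 (Zfp449) to 0.58 (Firre). All 4 hairpin libraries were above both Nons libraries in 3 genes (Firre and Ocrl among them; 4.45 % of all X-linked genes), and below in 1 (Htatsf1; 5.26 %). Likewise, Nons cells of day 3 and cells of day 0 differed in 0 genes (0 % of X-linked genes), with 0 at an unadjusted p under 0.05 and 0 by DESeq2. From day 3 to day 5 under knockdown 2 genes fell (6.07 % of X-linked genes), Zdhhc9 by 0.91 and Gm364 by 0.46 on the log2 scale, with adjusted p values of 0.000283 and 0.0315 by edgeR. Zdhhc9 thus fell with and without knockdown, and its call under knockdown was lost without shSetdb1.6 of day 3, replicate 2 (adjusted p = 0.0610), and with the deepest SNP of each gene only (−1.17, adjusted p = 0.160). The call for Gm364 was lost in 6 of 8 fits with 1 library left out (adjusted p from 0.0604 to 0.221), namely those without shSetdb1.4 of day 3, replicate 1, of day 5, replicate 2, and without any of the 4 shSetdb1.6 libraries. It was also lost without the replicate block (0.0776), by DESeq2 (0.0932) and with the deepest SNP of each gene only (0.235).

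Whether the knockdown effect differed between the 2 days was tested directly by the interaction. It was past the threshold in 0 of the 33 genes (0.81 % of X-linked genes), with 5 at an unadjusted p under 0.05 (Xiap, Bcorl1, Htatsf1 and Phf6 among them; 32 of the 247 X-linked genes) and 0 by DESeq2. The fitted interaction was positive in 27 genes and negative in 6, with a median of 0.56. For Zdhhc9 it was 0.68 (SE 0.35, adjusted p = 0.369, edgeR). A knockdown effect at day 5 that is larger than at day 3 was therefore not shown for a single gene of the interval.

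Counted by SNP, 113 of 217 SNPs (52.1 %) with at least 10 reads in the 3 libraries of day 5 had a higher Xi/Xa ratio with both hairpins than with Nons in replicate 1, and 42 of 79 (53.2 %) in replicate 2. Over the whole X chromosome the percentages were 51.5 % and 59.1 %. Lower with both hairpins were 44 SNPs (20.3 %) and 15 SNPs (19.0 %), beside 17.5 % and 16.9 % for the chromosome. Of the 79 SNPs counted in both replicates, 20 (25.3 %) were higher and 7 (8.86 %) lower with both hairpins in each replicate, where 32.6 % and 2.36 % of the X-linked SNPs were so. At day 3 the shares of higher SNPs were 30.1 % and 39.3 %, beside 29.1 % and 33.6 % for the chromosome. Of the 82 SNPs counted in both replicates of day 3, 11 (13.4 %) were higher in both replicates and 7 (8.54 %) lower in both. Of the X-linked SNPs 9.01 % and 10.8 % were so. Without Firre the shares at day 5 were 55.9 % and 56.7 %.

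Along the interval, the 3 genes tested from 30 to 40 Mb (39 SNPs) had a median knockdown difference of 0.49 at day 5 and a median change of −0.22 with time in Nons cells. From 40 to 50 Mb (100 SNPs, 9 genes), where Zdhhc9, Bcorl1 and Elf4 lie, the medians were 0.57 and −0.73, and 9 of 9 genes were higher with knockdown. From 50 to 60 Mb (162 SNPs, 16 genes) they were 0.45 and −0.61, with 15 of 16 genes higher. In the last 10 Mb (29 SNPs, 5 genes) they were 0.088 and 0.064, with 3 of 5 genes higher, and this block holds Mcf2 and Sms-ps. These blocks hold few genes and were given no test.

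SNPs of the same gene mostly gave like ratios. The SD between the SNPs of a gene, over reads summed from 14 libraries, had a median of 0.33 on the log2 scale and was lowest in Lamp2 (0.024). Of 315 SNPs with at least 50 reads, 212 had a ratio under 0, 39 were under −1.5 (31 of them in Firre) and 0 were above 1.5. Single positions stood apart from their gene. In Rbmx2, an RNA-binding protein gene, the SNP at 48710209 had 16.1 % CAST reads (317 reads of 129 and 61 of CAST), a log2 ratio of −2.36 beside a median of −0.48 over the 8 SNPs of the gene. In Enox2 the SNP at 49013530 had a ratio of −2.83, on 63 and 8 reads. Rhox6, a homeobox gene of the reproductive Rhox cluster, had SNPs from 27.3 % to 73.8 % CAST reads (SD 1.6), and reads of near-identical family members could be shared there. By position in the transcript, the median ratio was −0.17 for 3′ UTRs, −0.33 for coding sequence, −0.52 for 5′ UTRs and −2.38 for noncoding exons, and the last was 0.28 over the 7 noncoding SNPs outside Firre.

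The total of both alleles was compared to see whether genes of the interval changed in expression relative to the other X-linked genes. Totals are given as normalised read counts (CPM), the allele reads of a gene scaled to 1000000 X-linked allele reads with TMM factors. The scale takes no account of length or of the number of SNPs, so levels of different genes are not compared. It also takes out a change common to the X-linked genes, so a change of the whole chromosome cannot be seen in these totals. Between knockdown and Nons, 0 of 33 genes changed at day 5 and 0 at day 3 (0 % of X-linked genes in each), with 0 at an unadjusted p under 0.05 and 0 by DESeq2 in both. Zdhhc9 had 5240 and 3862 CPM in Nons cells at day 5, 5044 and 3001 under shSetdb1.4, and 3192 and 3194 under shSetdb1.6.

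In Nons cells 5 of 33 totals changed from day 3 to day 5 (27.9 % of X-linked genes). Gpc4 had 2655 and 3905 CPM at day 3 and 651 and 1005 at day 5, and Mcf2 had 2341 and 1791 and then 755 and 345. For both genes the days do not overlap. Gpc4 fell by 2.05 (SE 0.34, adjusted p = 0.000738) and Mcf2 by 1.79 (SE 0.34, adjusted p = 0.00165) on the log2 scale, by edgeR, and both calls were kept with each of the 4 libraries left out. Elf4 fell by 1.27 (SE 0.45, adjusted p = 0.0446 in the same edgeR test), from 1219 and 833 to 465 and 345, and this call was lost with any of the 4 left out (0.0836 to 0.208). Firre rose by 2.20 (SE 0.51, adjusted p = 0.00636 by edgeR), from 4209 and 1791 to 17533 and 9513. Without Nons of day 3, replicate 2, or of day 5, replicate 1, its adjusted p was 0.0890 or 0.0598.

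Lamp2 first fell and then rose. It had 4256 and 2602 CPM at day 0, 1042 and 821 in Nons cells at day 3, and 2475 and 1287 at day 5. The changes were −1.89 (SE 0.36, adjusted p = 0.0101) and 1.07 (SE 0.37, adjusted p = 0.0431) by edgeR. The first was lost without day 0 replicate 1 (adjusted p = 0.128) or Nons of day 3, replicate 2 (0.257), and the second without any of Nons of day 3, replicates 1 and 2, and day 5, replicate 1 (0.0890, 0.262 and 0.489). The second change was 0.48 without Nons of day 5, replicate 1, and 1.41 without replicate 2, and its adjusted p was 0.0503 with the size factors of DESeq2 in edgeR.

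From day 0 to Nons at day 3, 4 of 33 totals changed (7.29 % of X-linked genes), 2 of them upwards (2.02 %) and 2 downwards (5.26 %). Sms-ps rose from 2379 and 3715 to 5527 and 5187 CPM (0.81, SE 0.22, adjusted p = 0.0351 by edgeR), the zinc finger gene Zfp449 fell from 873 and 484 to 295 and 249 (−1.33, SE 0.33, adjusted p = 0.0307), and Lamp2 is described above. Leaving out day 0 replicate 1 or Nons of day 3, replicate 2, left 0 calls in this comparison. With the replicate block the count was 8. The virus and the selection cannot be told apart from time here.

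**Figure D5:**
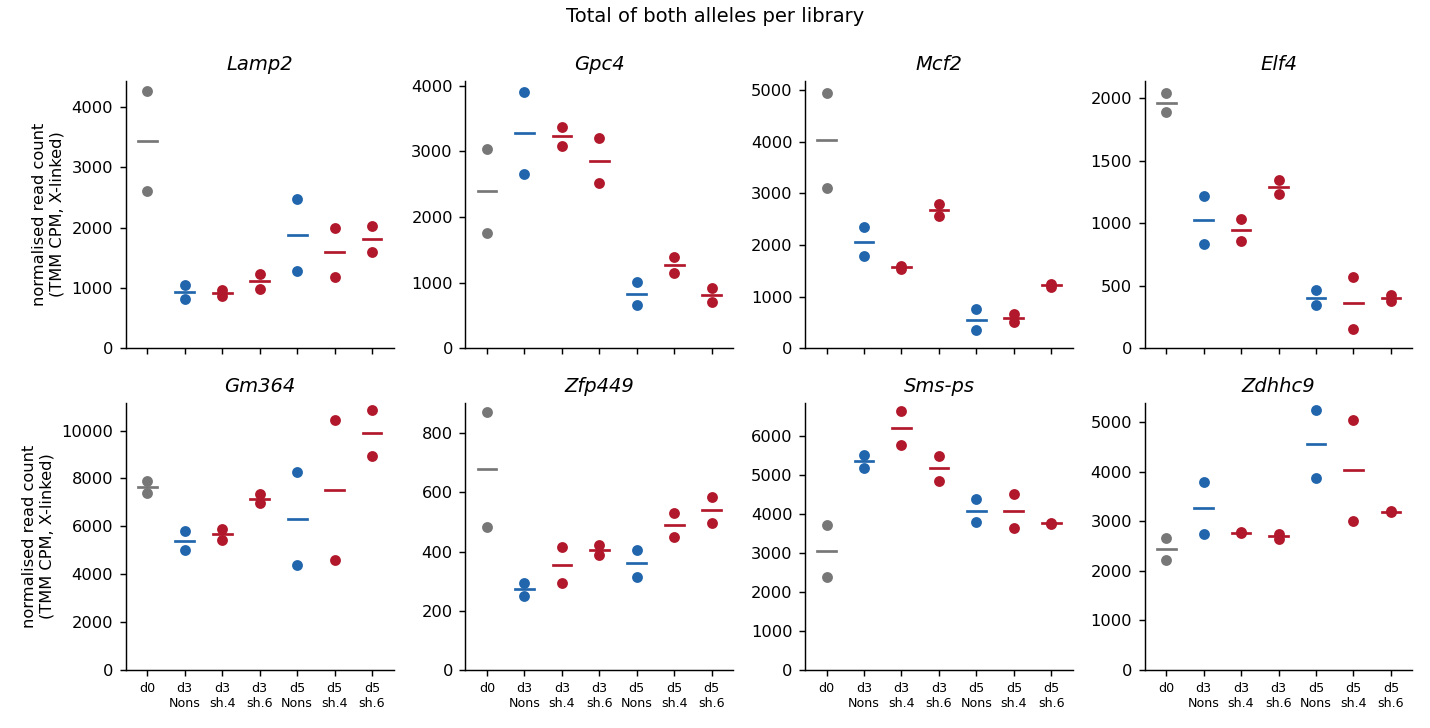
Normalised read count of both alleles (CPM of X-linked allele reads, y axis from 0) in each library by condition (x axis) for Lamp2, Gpc4, Mcf2, Elf4, Gm364, Zfp449, Sms-ps and Zdhhc9, with grey for day 0, blue for Nons, red for the hairpins and a short line at the mean of 2 replicates. Gpc4 and Mcf2 are lower in all 6 libraries of day 5 than in all 6 of day 3.

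Markers of other cell types were thin in this interval. For trophoblast, 2 of 6 X-linked markers had SNPs (Rhox6 with 9 to 65 reads and Rhox9 with 2 to 22 reads per library), and neither was tested. Of 5 neural markers, 2 had SNPs (Sox3, with 4 to 56 reads, and Fgf13, tested and not called in the ratio or in the totals), and of 3 lymphoid markers and 1 of hepatocytes 0 had SNPs. The part of other cell types in these results was not tested.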

How the data were processed

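The authors mapped 100 bp single-end TruSeq reads to mm10 with Subread and counted, by samtools pileup at Mouse Genomes Project SNPs, the reads with the 129 or the CAST base; the deposited values are these raw counts per SNP and allele, without normalization. Masking of SNPs for RNA-seq mapping and strand use in counting are not given in the sources used here. Of the deposited table, 28 count columns were used, and 4 columns whose samples the labels do not give were not used. Setdb1 lies outside these X-linked tables, so the knockdown was not checked here.

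SNPs were assigned to genes by GENCODE vM21 exons. A SNP entered a library's median with 10 reads or more, as log2 of (CAST + 1)/(129 + 1). The quasi-likelihood test of edgeR 4.0.16 (R 4.3.3) was run on counts summed per gene, for the 247 X-linked genes that reached 10 reads throughout, with Benjamini-Hochberg adjustment over all 247. Ratios were fitted with a term per library, an allele effect per condition and an allele effect of the replicate number (the replicate block), totals with TMM and no block. DESeq2 1.42.0 was an alternative. Other steps used Python 3.11.15, numpy 2.4.6 and pandas 2.3.3, and the fits were tested on simulated data. SDs are between 2 replicate libraries. The p-values come from fits to all 14 libraries, which share 1 estimate of the spread, and do not measure the SD between the 2 libraries of a condition.

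The block is used for ratios because the study set each hairpin against the Nons culture of the same experiment. Totals were fitted without it because the study's methods give no block for total expression. The calls depend on this choice in both, as given below. Deviations of same-numbered libraries from their condition means had a mean correlation of 0.051 for ratios and 0.21 for totals. Genes named are those called in any comparison, the 10 with most reads, and the 6 highest and 6 lowest in knockdown minus Nons at day 5; Ints6l, Fgf13, Rbmx2, Phf6, Gpc3, Fmr1nb, Rhox6, Rhox9, Sox3, Enox2, Fhl1, Fam122b and the genes of the lists were named besides. The interval, its genes and the lists were chosen with earlier results of these data known. A few genes and 1 sequence are not reported here.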

Additional observations from a re-analysis of the deposited data

How the results depend on the processing

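Of the settings other than leaving out a library, 130 values of named genes kept direction and side of the threshold, 26 kept direction only and 4 changed sign. The reversed ones are knockdown minus Nons at day 5 in Mmgt1 with no replicate block (0.020), and, with ratios centred on each library's median, in Firre (−0.29), Sms-ps (−0.25) and Gm14719 (−0.18). With 1 library left out these differences ranged from −0.13 to 0.043 (Mmgt1), −0.041 to 0.23 (Firre), −0.10 to 0.26 (Sms-ps) and 0.0047 to 0.29 (Gm14719). The cause was not tested.

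For knockdown minus Nons at day 5 (1 gene called) the count was 0 with no replicate block, DESeq2 (7 of the interval's genes had an adjusted p), no filter on low counts, the deepest SNP of each gene only (15 genes tested), centred ratios and the libraries of day 5 alone, and from 0 to 5 with 1 library left out. For Nons at day 5 minus day 3 (5 called) the pairing by replicate mattered too: 2 with no replicate block (Zdhhc9 and Bcorl1), 1 by DESeq2, 2 with at least 30 reads, 3 with no filter, 1 with the deepest SNP, 2 with centred ratios, and 1 to 3 with 1 library left out (1, Zdhhc9, without Nons of day 5, replicate 2). For knockdown at day 5 minus day 3 (2 called) it was 1 with no replicate block, 1 by DESeq2, 0 with the deepest SNP and 0 to 2 with 1 library left out. For CAST against 129 at day 0 (4 called) it was 1 with the deepest SNP (Pgrmc1; Firre, Zfp280c and Ocrl then fell under the read minimum and were not tested), 5 with centred ratios, 6 with no filter and 3 to 4 with 1 library left out. Totals of Nons at day 3 minus day 0 (4 called) gave 8 with the replicate block, 2 with at least 30 reads, 2 with the deepest SNP and 0 to 6 with 1 library left out, and of day 5 minus day 3 (5 called) 6 with the replicate block (Ints6l besides), 3 with at least 30 reads, 9 with no filter, 2 with the deepest SNP and 2 to 5 with 1 library left out. The comparisons with 0 calls stayed at 0 in the settings run.

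The median of SNPs, knockdown minus Nons at day 5, was 0.19 with at least 20 reads per SNP, and 0.48 over genes; the share of SNPs higher with both hairpins (52.6 % over the replicates) was 48.9 % with at least 5 reads and 56.3 % without Firre. The settings over genes and without Firre were chosen after seeing the data. Depth limits single genes: Zfp449, Elf4, Mcf2, Fgf13, Ints6l, Enox2 and Usp26 rest on 10 to 25 reads in Nons of day 5, replicate 2.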
